A study of Mus musculus with 55 samples.

Results

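The transcripts described here are those of 10 mouse genes that encode neuropeptide precursors: Sst, Npy, Vip, Cck, Tac1, Penk, Cartpt, Crh, Pdyn and Adcyap1. They were taken by name from the genes with a symbol in the count tables of 2 experiments, 28492 genes in an experiment on maturation and 28216 in an experiment on stimuli. Where a gene had several transcripts, the transcript with the most counts stood for it. All 10 genes passed the filter on low counts in both experiments, but Pdyn passed in the maturation experiment through only 2 of 28 samples, both of them stimulated 21DIV samples, and Crh passed in the stimuli experiment only through the 15 of 27 samples that had not been in TTX, so that its difference between these samples is a description and no support for one. Among the 6 basal samples of the maturation experiment, Vip, Crh and Cartpt likewise reached the filter's 2 samples only in the stage where they are higher.

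Neuropeptides are made as larger precursor proteins, cut by prohormone convertases, packed into dense core granules together with granins, and released when a neuron fires strongly. They act mainly on G protein-coupled receptors of neighbouring cells. In the cerebral cortex most peptide precursors are made by GABAergic interneurons, and their transcripts are used as markers of interneuron classes, while some, such as Cck and Adcyap1, are also made by glutamatergic neurons. Transcription of several peptide genes is known to respond to calcium and cyclic AMP through the transcription factor CREB, which binds the cyclic AMP response element (CRE).

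Primary neurons from the cortex and hippocampus of embryonic CD1 mice of mixed sex were profiled by 3′ end RNA sequencing (CEL-Seq2). The maturation experiment held 28 samples, of cultures at 7DIV (days in vitro) and at a later stage called 21DIV by the study and 23DIV in the sample labels. At each stage, cultures were left basal (n = 3), depolarised with 55 mM KCl for 15 or 180 min (n = 3 each), or given 50 µM bicuculline, a GABA-A receptor blocker, with 2.5 mM 4-aminopyridine, a potassium channel blocker (Bic+4-AP), for 15 or 180 min (n = 3 each at 7DIV, n = 2 each at 21DIV). The stimuli experiment held 27 samples, all at 21DIV. They were basal cultures (n = 3), cultures under 55 mM KCl or 50 µM bicuculline alone (Bic) for 15, 45 or 180 min (n = 2 each), cultures silenced for 48 h with 1 µM tetrodotoxin, a sodium channel blocker (basal TTX, n = 4), and cultures from which TTX was then withdrawn for 15 (n = 3), 45 (n = 2) or 180 min (n = 3) (TTXw). TTX was washed out by repeated exchanges with fresh medium, and the paper states that control neurons were washed in the same way. In KCl, Bic and basal wells only a small part of the medium was replaced. The cultures held several cell types, so a level is an average over all cells of a well, and fewer cells of a type and less RNA per cell cannot be told apart. Nothing in the labels says that replicates came from separate preparations, so the p-values measure the spread between these samples, which may be technical.

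Counts assigned to genes ranged from 1659722 to 4474968 per library at 7DIV, from 1784170 to 14012872 at 21DIV of the maturation experiment, and from 1177500 to 3909487 in the stimuli experiment. Levels are given as CPM (counts scaled to a common library size, by TMM), and a gene is called where edgeR's quasi-likelihood test gave a Benjamini-Hochberg adjusted p under 0.05 over all genes tested and the change was at least 1.5-fold. The cultures expressed 8 of 8 listed markers of neurons in general, whose summed level in the basal groups ran from 6357 to 7313 CPM at 21DIV of the maturation experiment to 9745 to 9963 CPM at 7DIV. The 5 listed microglia markers in the tables summed to at most 17.1 CPM in any basal or basal TTX sample. The 12 libraries that had been in TTX stood apart from the other 15 of the stimuli experiment in the log2 ratio of Xist to Y-linked transcripts. The ratio was 1.29 to 2.21 in the TTX libraries and 0.453 to 1.23 in the rest. No label names a preparation or a pool of embryos, and what the ratio reflects was not tested. A different mix of embryos, if there was one, cannot be told apart from TTX treatment. Washing of the medium may have differed along the same line and cannot be told apart from TTX either.

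The promoters of these genes are shown first, because a CRE is the sequence through which several of them are known to respond to activity. RefSeq promoter windows, 250 bases before to 50 bases after the transcription start on build GRCm38.p6, were matched for 8 of 10 genes. Penk and Crh had no entry. The windows of 5 genes are given 5′ to 3′ on the strand of the gene, with a CRE (TGACGTCA) or its 5-letter core (TGACG, or CGTCA when it lies on the opposite strand) in capitals.
Sst, chr16:23890795-23891094, reverse strand: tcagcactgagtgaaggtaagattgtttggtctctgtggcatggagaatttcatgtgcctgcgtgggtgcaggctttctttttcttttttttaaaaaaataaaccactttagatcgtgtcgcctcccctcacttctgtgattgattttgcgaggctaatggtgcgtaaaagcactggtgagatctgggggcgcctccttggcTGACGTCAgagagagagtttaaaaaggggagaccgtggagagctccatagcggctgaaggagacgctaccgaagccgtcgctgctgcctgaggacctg
Cartpt, chr13:99900634-99900933, reverse strand: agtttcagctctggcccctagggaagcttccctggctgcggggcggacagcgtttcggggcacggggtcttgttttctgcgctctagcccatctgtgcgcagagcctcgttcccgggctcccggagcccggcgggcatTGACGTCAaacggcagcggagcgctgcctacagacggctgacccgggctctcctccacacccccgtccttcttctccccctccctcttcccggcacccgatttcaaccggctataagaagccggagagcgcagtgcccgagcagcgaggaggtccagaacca
Vip, chr10:5638968-5639267, forward strand: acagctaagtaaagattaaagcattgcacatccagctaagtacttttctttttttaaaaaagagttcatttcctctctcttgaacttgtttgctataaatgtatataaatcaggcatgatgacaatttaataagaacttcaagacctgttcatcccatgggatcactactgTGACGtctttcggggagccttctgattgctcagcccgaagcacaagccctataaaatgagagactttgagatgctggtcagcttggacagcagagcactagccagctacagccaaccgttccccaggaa
Cck, chr9:121495645-121495944, reverse strand: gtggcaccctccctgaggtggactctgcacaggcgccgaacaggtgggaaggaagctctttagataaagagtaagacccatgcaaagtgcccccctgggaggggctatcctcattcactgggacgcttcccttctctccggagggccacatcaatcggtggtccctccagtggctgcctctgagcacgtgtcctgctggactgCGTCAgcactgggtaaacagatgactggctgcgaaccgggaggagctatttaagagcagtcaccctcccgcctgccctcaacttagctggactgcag
Adcyap1, chr17:93198767-93199066, forward strand: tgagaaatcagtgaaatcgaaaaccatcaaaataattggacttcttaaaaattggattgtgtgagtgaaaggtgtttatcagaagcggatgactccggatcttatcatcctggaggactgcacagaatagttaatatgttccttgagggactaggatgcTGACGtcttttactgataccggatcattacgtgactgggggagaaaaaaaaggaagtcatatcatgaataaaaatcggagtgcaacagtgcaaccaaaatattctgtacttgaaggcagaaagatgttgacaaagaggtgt
Both strands of each window were searched. The whole CRE lay in the windows of Sst, starting 48 bases before the transcription start, and of Cartpt, starting further upstream. Of all 32851 promoter windows, 588 (1.79%) held it on either strand. The core alone, which every CRE also contains, was found in Vip, 79 bases before the start, in Cck, 47 bases before it, in Adcyap1, 91 and 242 bases before its 2 annotated starts, which is 1 match seen from each of them, and in Tac1, 197 and 43 bases before it. It was present in 6837 windows (20.8%), and neither Npy nor Pdyn held it. The AP-1 site (TGANTCA on either strand, a match that no CRE contains) was in 2565 windows (7.81%) and in none of the 8 genes. These matches describe letters within the windows only.

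The question of the first comparison was how basal expression differs between maturation stages. At 21DIV the cultures held far more Cck and Vip than at 7DIV, more Penk and slightly more Tac1, and less Cartpt. Of the 9 genes tested among the 6 basal samples, 4 were called higher and 1 lower at 21DIV. Vip and Cartpt are among these calls, and Crh among the genes tested, only through the stage where each is higher. Their directions are thus a description and no support for a difference. Of all 10510 genes tested in this comparison, 33.1% were called, 18.2% higher and 14.9% lower. The median log2 fold change was 0.75 over the 9 genes and 0.01 over all genes tested, and that over all genes stayed within 0.03 of 0 in every comparison. Pdyn had under 5 CPM in all 6 samples and was not tested.

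Cck, at chr9:121489824-121495694 (GRCm38.p6), encodes cholecystokinin, a peptide of both interneurons and pyramidal cells. It stood at 130.2, 131.9 and 112.5 CPM in the 3 basal 7DIV samples and at 2138, 2059 and 2470.1 CPM in the 3 basal 21DIV samples. All 21DIV samples lay far above all 7DIV samples. The difference was 18.2-fold (log2 fold change 4.19 ± 0.13 (SE), adjusted p = 2.29e-10), the means being 124.8 ± 10.8 CPM (SD, n = 3) and 2222 ± 218 CPM (SD, n = 3). Across all 28 samples, stimulated ones included, Cck ran from 111.5 to 143.5 CPM (median 129.5) at 7DIV and from 1716 to 2505 CPM (median 2131) at 21DIV.

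Vip, at chr10:5639193-5647617, encodes vasoactive intestinal peptide, a marker of interneurons that mainly contact other interneurons. Its counts in the basal 7DIV libraries were only 3, 5 and 22, which gave 1.41, 3.05 and 5.93 CPM, against 24.96, 73.0 and 95.6 CPM at 21DIV. The stages did not overlap, and replicates at 21DIV differed among themselves, with replicate 1 the lowest. Vip rose by a log2 fold change of 4.08 ± 0.52 (SE), adjusted p = 3.56e-05. The ratio of the summed counts, 1423 against 30, was 17.3 with an exact 95% interval of 12 to 25.7, which covers counting error only.

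Penk, at chr4:4133536-4138815, encodes proenkephalin, the precursor of the enkephalin opioid peptides. It stood at 27.4, 23.8 and 31.6 CPM at 7DIV and at 90.2, 119 and 178 CPM at 21DIV. Every 21DIV sample exceeded every 7DIV sample, and the log2 fold change was 2.23 ± 0.24 (SE), adjusted p = 7.77e-06. Tac1, at chr6:7555061-7562978, encodes the precursor of substance P and neurokinin A. Its values were 22.6, 25.04 and 16.2 CPM at 7DIV and 37.5, 26.2 and 39.3 CPM at 21DIV. The groups were close, with the lowest 21DIV sample just above the highest 7DIV sample, and the log2 fold change was 0.75 ± 0.24 (SE), adjusted p = 0.0248. The Tac1 call was lost without basal 7DIV replicate 4 (0.55, adjusted p = 0.131) and without basal 21DIV replicate 1 (adjusted p = 0.053) or 3 (adjusted p = 0.106).

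Cartpt, at chr13:99898483-99910179, encodes the cocaine- and amphetamine-regulated transcript peptide. It took the opposite course, with 83.9, 52.5 and 48.8 CPM in basal 7DIV samples and 4.30, 2.85 and 6.50 CPM in basal 21DIV samples. All 3 older samples were well below all 3 younger ones. Cartpt fell by 12.8-fold (log2 fold change -3.68 ± 0.31 (SE), adjusted p = 9.25e-07). Basal 21DIV samples of the stimuli experiment, which was scaled separately, had other levels of several genes. Means there were 30.99 CPM for Cartpt, 456 CPM for Cck, 50.5 CPM for Penk and 176 CPM for Adcyap1 (n = 3). Vip and Tac1 were at 52.9 and 46.5 CPM. The stage differences given here are thus those of the maturation experiment alone.

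The remaining genes were not called between stages. Sst, at chr16:23889573-23891342, encodes somatostatin, the peptide of a large interneuron class that contacts dendrites. It measured 1707, 1864 and 1392 CPM at 7DIV and 2082, 1739 and 1720.3 CPM at 21DIV, which overlapped (log2 fold change 0.19 ± 0.13 (SE), adjusted p = 0.28). Npy, at chr6:49822710-49829507, encodes neuropeptide Y, which is often made in the same interneurons as somatostatin. Its values of 281, 379 and 310.4 CPM and 269, 416 and 504 CPM also overlapped (log2 fold change 0.33 ± 0.19 (SE), adjusted p = 0.209). Adcyap1, at chr17:93198245-93206541, encodes PACAP, a relative of VIP that raises cyclic AMP in its target cells. It had 64.6, 50.1 and 58.2 CPM at 7DIV and 54.6, 26.9 and 30.3 CPM at 21DIV, where replicate 1 lay among the 7DIV values and the other two below them (log2 fold change -0.61 ± 0.25 (SE), adjusted p = 0.0668), and without 21DIV replicate 1 it passed the test as lower (-0.61 ± 0.25 with it, -0.98 without it, adjusted p = 0.00142). Crh, at chr3:19693401-19695396, encodes corticotropin-releasing hormone, the peptide that starts the pituitary stress response. It was low at both stages, with 1.89, 1.83 and 4.05 CPM at 7DIV and 5.51, 7.12 and 4.96 CPM at 21DIV (log2 fold change 1.08 ± 0.48 (SE), adjusted p = 0.0898). It passed the test as higher without basal 7DIV replicate 4 (1.65, adjusted p = 0.0483). Since only 21DIV samples brought Crh past the filter, this direction is a description and no support for a difference. The annotated genes Gm38661, Gm42189 and Gm32465 overlap Cck, Crh and Adcyap1 by position, without regard to strand. Whether reads of these genes enter the counts was not tested.

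**Figure D1:**
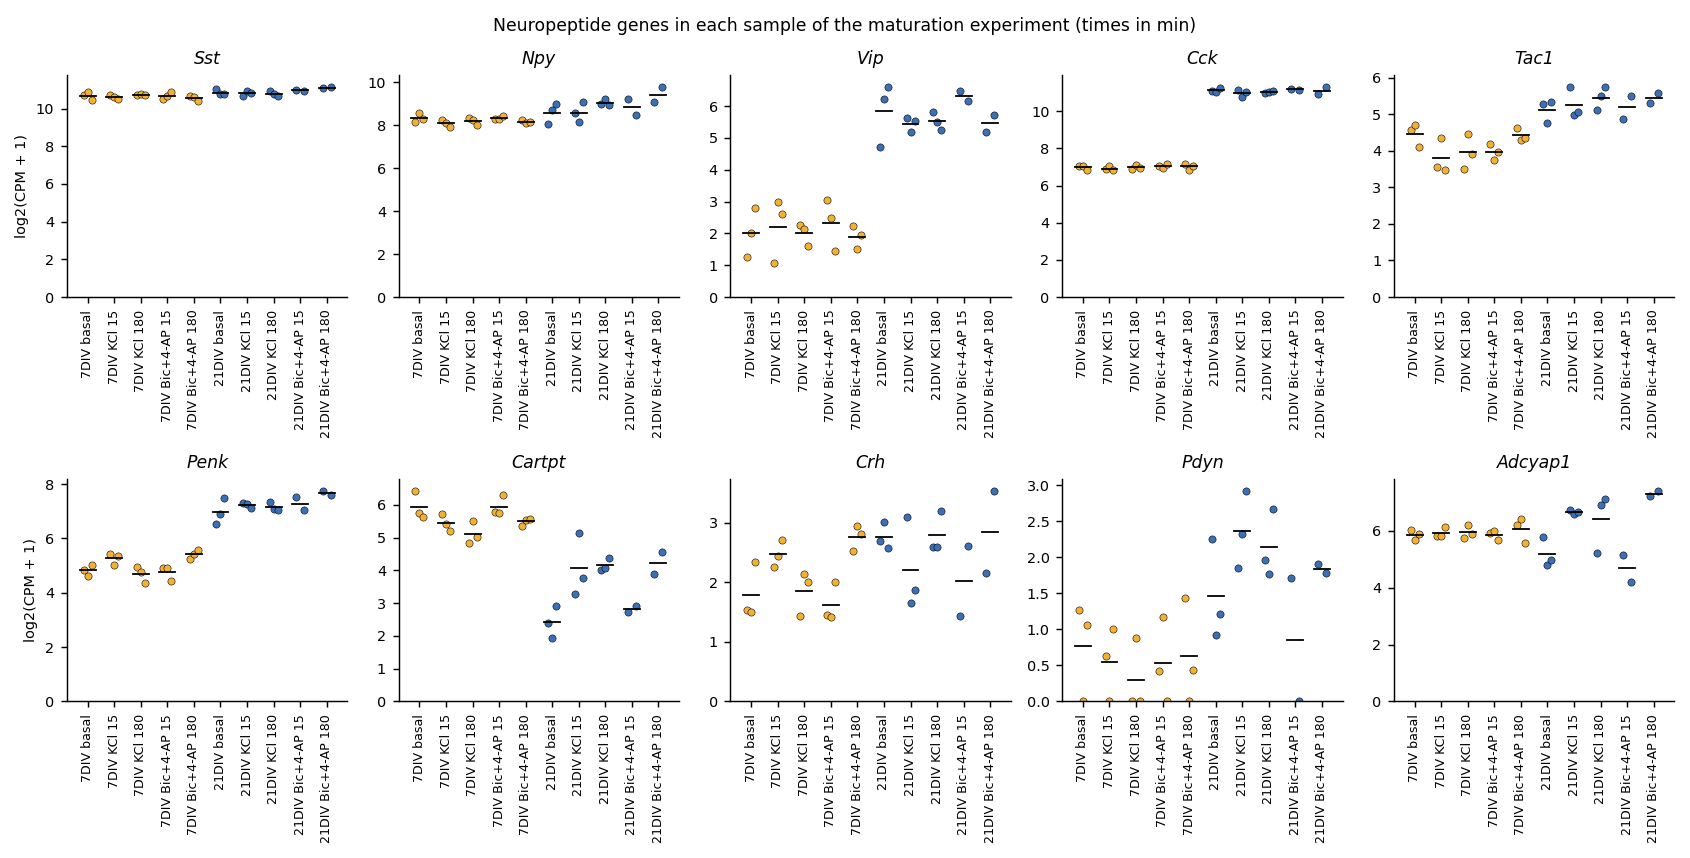
Level of each neuropeptide gene in every sample of the maturation experiment as log2(CPM + 1), with 7DIV in yellow and 21DIV in blue, points for samples and bars for group means. Cck, Vip, Penk and Tac1 at 21DIV lie above all 15 samples at 7DIV, Cartpt is lowest in the basal and Bic+4-AP 15 min groups at 21DIV, and Adcyap1 is highest in the Bic+4-AP 180 min group at 21DIV.

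Over all samples, basal and stimulated, the 15 at 7DIV and the 13 at 21DIV did not overlap for 4 of the 10 genes: Vip, Cck, Tac1 and Penk. Among all 11746 genes tested, 14.7% did not overlap in this way. Other genes of the peptide pathway also differed between basal stages. Of 43 further neuropeptide genes listed, 10 were tested, of which 7 rose and 0 fell, with a median log2 fold change of 1.37 over those tested. Among them was Tac2, the neurokinin B precursor, whose mean was 8.30 ± 5.67 CPM (SD, n = 3) in the younger cultures and 75.0 ± 25.6 CPM (SD, n = 3) in the older ones (log2 fold change 3.31 ± 0.36 (SE), adjusted p = 8.79e-06). The calcium-regulating peptide gene Pthlh rose by 2.87 ± 0.38 and Apln, the apelin precursor, by 3.30 ± 0.71 on the log2 scale, the latter from at most 3 counts per library at 7DIV. Only 21DIV samples brought Apln past the filter, so its rise is a description. In this and later list counts, a gene low in 1 group could be tested only through groups where it is higher. Of 26 processing and granule genes, 9 rose and 4 fell (median 0.36). They included the prohormone convertase gene Pcsk2 (log2 fold change 1.30 ± 0.16) and the carboxypeptidase gene Cpe (1.28 ± 0.12), which rose, and the convertase gene Pcsk6, which fell (-1.38 ± 0.22). Of 9 genes for peptide receptors and binding proteins, 4 rose and 1 fell (median 0.41). Cckbr, the brain receptor for cholecystokinin, was at 6.40 ± 6.36 CPM (SD, n = 3) in the younger and at 122 ± 14.6 CPM (SD, n = 3) in the older cultures (log2 fold change 4.23 ± 0.38 (SE), adjusted p = 1.65e-06), and Crhbp, which binds CRH, and Vipr1, a VIP receptor, rose by 3.75 ± 0.36 and 2.56 ± 0.66.

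Markers of cell types moved between the same samples. Astrocyte markers summed to 595 to 868 CPM in basal 7DIV samples and to 4672 to 5718 CPM in basal 21DIV samples, with 11 of 12 called higher. Oligodendrocyte markers went from 465 to 726 CPM to 2397 to 3156 CPM, with 8 of 8 higher. Inhibitory neuron markers went from 1255 to 1405 CPM to 2088 to 2193 CPM, with 8 higher and 3 lower of 21, and excitatory neuron markers from 1939.6 to 2201 CPM to 1151 to 1549 CPM, with 2 higher and 8 lower of 10. The GABA-synthesising enzyme genes Gad1 and Gad2 rose by 1.01 ± 0.12 and 1.35 ± 0.15 on the log2 scale. The part of these markers in the peptide results was not tested.

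The stimulated cultures of the maturation experiment addressed how the response to activity depends on the stage. At 7DIV none of the 10 genes was called under KCl or Bic+4-AP at 15 or 180 min. Few genes of any kind were called in these 4 comparisons, 1.98% of 11746 after KCl 180 min and 0% in the other 3, with 1473 genes at an unadjusted p under 0.05 after KCl 180 min and 659 to 793 in the others. DESeq2 also called none of the 10. Among the 10 genes the lowest adjusted p was 0.256, for KCl 180 min, and 1 gene each was under an unadjusted p of 0.05 after KCl 180 min and Bic+4-AP 180 min. Adcyap1 is given as an example of the 7DIV values. It was at 64.6, 50.1 and 58.2 CPM in basal samples, at 55.5, 55.7 and 69.4 CPM after KCl 15 min and at 52.5, 73.3 and 58.4 CPM after KCl 180 min. After Bic+4-AP it was at 59.9, 62.4 and 49.9 CPM at 15 min and 73.1, 83.4 and 46.6 CPM at 180 min, and all these groups overlapped the basal one. Cartpt after KCl 180 min was at 27.7, 44.5 and 31.1 CPM, all below the basal samples (log2 fold change -0.84 ± 0.33 (SE), adjusted p = 0.256), and passed the test only when no filter on low counts was applied (-0.81, adjusted p = 0.0405).

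At 21DIV Adcyap1 and Cartpt rose under KCl at 15 and 180 min and under Bic+4-AP at 180 min, and Npy and Penk under Bic+4-AP at 180 min. The number of the 10 genes called was 2 at each KCl time, where 6.23% and 4.89% of all genes were called, and 4 after Bic+4-AP 180 min, where 14.2% were. All calls were in the higher direction, against 3.21%, 2.98% and 7.39% of all genes called higher. None of the 10 was called after Bic+4-AP 15 min, where 0.0511% of all genes were called and none of the 10 had an unadjusted p under 0.05 or was called by DESeq2. The 4 comparisons share the same 3 basal samples. Column headers of the deposited table give the Bic+4-AP 180 min libraries of 21DIV the letter E, which no other library carries. The other 21DIV libraries carry C or D, and those at 7DIV carry A or B. What the letter stands for is not stated, and it cannot be told apart from Bic+4-AP 180 min at 21DIV or from the stage.

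Adcyap1 stood at 54.6, 26.9 and 30.3 CPM in basal 21DIV samples and at 106, 94.7 and 100.3 CPM after KCl 15 min. The stimulated samples were all above the basal ones and differed little from each other, and the log2 fold change was 1.44 ± 0.30 (SE), adjusted p = 0.00314. After KCl 180 min it was at 35.9, 119.8 and 137 CPM, with replicate 1 within the basal range and the other two well above it. The log2 fold change was 1.39 ± 0.30 (SE), adjusted p = 0.00524, and the call was lost without KCl 180 min replicate 3 (1.07, adjusted p = 0.0704) and when only the compared groups entered the fit (adjusted p = 0.0589). Bic+4-AP 180 min gave the highest values, 146.9 and 166 CPM, above all basal samples (log2 fold change 2.07 ± 0.33 (SE), adjusted p = 6.63e-05). The 15 min values under the same agents, 34.7 and 17.4 CPM, were not above basal.

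Cartpt was at 4.30, 2.85 and 6.50 CPM in basal 21DIV samples, from 16 to 59 counts per library. After KCl 15 min it was at 8.68, 34.2 and 12.6 CPM. All 3 values exceeded basal, with replicate 2 far above the others (log2 fold change 1.89 ± 0.37 (SE), adjusted p = 0.00159). Without that replicate the gene still passed the test, at a smaller log2 fold change of 1.14 (adjusted p = 0.0283). The values of 15.1, 15.8 and 19.7 CPM after KCl 180 min and 13.9 and 22.7 CPM after Bic+4-AP 180 min also lay above all basal ones. Their log2 fold changes were 1.83 ± 0.38 (SE), adjusted p = 0.00286, and 1.94 ± 0.41 (SE), adjusted p = 0.00144. These stimulated values remained below the lowest value at 7DIV, 27.7 CPM, except in KCl 15 min replicate 2.

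Npy and Penk were called after Bic+4-AP 180 min with smaller changes. Npy stood at 538 and 879.7 CPM against 269, 416 and 504 CPM in basal samples, above them all by a small margin in replicate 2 (log2 fold change 0.84 ± 0.23 (SE), adjusted p = 0.0124). Its call was lost without basal replicate 1 (0.62, adjusted p = 0.061) and without Bic+4-AP replicate 3 (0.43, adjusted p = 0.341). Penk was at 211 and 192 CPM against 90.2, 119 and 178 CPM, above all basal samples (log2 fold change 0.64 ± 0.20 (SE), adjusted p = 0.0278). That call was kept in only 1 of 5 fits that each left out a library, being lost without basal replicate 1 (0.43, adjusted p = 0.133), basal replicate 2 (adjusted p = 0.0927) and Bic+4-AP replicate 2 (adjusted p = 0.21) or 3 (adjusted p = 0.0727), and with only the compared groups in the fit (adjusted p = 0.0739). At 7DIV Penk was at 37.1, 41.9 and 46.2 CPM under the same treatment, also above all basal samples, without being called (log2 fold change 0.57 ± 0.22 (SE), adjusted p = 0.693), and the difference between the stages was 0.07 ± 0.30 (SE), adjusted p = 0.935. Sst, Cck and Tac1 ranged from -0.14 to 0.33 in log2 fold change over the 4 comparisons at 21DIV, and none of these 3 genes was called. Vip, at 48.2, 35.3 and 45.4 CPM after KCl 15 min, was not called (log2 fold change -0.58 ± 0.34 (SE), adjusted p = 0.329), but passed as lower without basal replicate 1 (-0.97, adjusted p = 0.0366).

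The difference between stages was then tested itself, as the response at 21DIV minus the response at 7DIV. On the log2 scale Cartpt differed under KCl 15 min by 2.41 ± 0.49 (SE), adjusted p = 0.00945, under KCl 180 min by 2.67 ± 0.50 (SE), adjusted p = 0.00995, and under Bic+4-AP 180 min by 2.42 ± 0.52 (SE), adjusted p = 0.0074. In each case its fitted change was negative at 7DIV, -0.51, -0.84 and -0.48, without passing the test there. Adcyap1 differed after Bic+4-AP 180 min by 1.84 ± 0.46 (SE), adjusted p = 0.0174. These differences made 1 of 10 genes called at KCl 15 min, 1 at KCl 180 min and 2 at Bic+4-AP 180 min, against 2.03%, 0.775% and 4.95% of all genes by adjusted p alone, and 0.86%, 0.434% and 2.58% with a positive difference. At Bic+4-AP 15 min none of the 10 passed, nor with DESeq2, against 0.00851% of all genes, and none of the 10 had an unadjusted p under 0.05. The Adcyap1 difference was lost in each of 5 fits, at adjusted p of 0.0525 to 0.0582. The libraries left out there were basal 21DIV replicates 2 and 3, Bic+4-AP 180 min replicate 3 at 7DIV, and replicates 2 and 3 at 21DIV. For KCl the Adcyap1 difference was 1.39 ± 0.44 (SE), adjusted p = 0.1, at 15 min and 1.30 ± 0.44 (SE), adjusted p = 0.168, at 180 min. It passed at both times without basal 21DIV replicate 1 (1.75, adjusted p = 0.019, and 1.68, adjusted p = 0.0474), at 180 min without KCl 180 min replicate 1 at 21DIV (1.69, adjusted p = 0.00612), and at both times when no filter on low counts was applied (adjusted p = 4.27e-05 and 2.85e-04). Npy differed after Bic+4-AP 180 min by 1.01 ± 0.32 (SE), adjusted p = 0.0586, and passed without basal 21DIV replicate 3 (1.22, adjusted p = 0.035) or Bic+4-AP 180 min replicate 2 at 21DIV (1.31, adjusted p = 0.0495), with DESeq2 (1.03, adjusted p = 0.033) and with no filter on low counts (0.97, adjusted p = 2.06e-04).

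Genes for peptide handling responded in the same 21DIV samples. After Bic+4-AP 180 min, 8 of 14 further neuropeptide genes rose and 0 fell (median log2 fold change 1.26). Adm, the adrenomedullin precursor, rose, with means of 12.4 ± 11.9 CPM (SD, n = 3) in basal 21DIV cultures and 135.4 ± 0.471 CPM (SD, n = 2) after stimulation (log2 fold change 3.47 ± 0.43 (SE), adjusted p = 2.08e-06). Nms, the neuromedin S precursor, rose by 3.10 ± 0.76 and Calca, the precursor of calcitonin and CGRP, by 2.39 ± 0.68. Of 26 processing and granule genes 7 rose and 3 fell (median 0.11), and the granin genes Scg3 and Scg2 rose by 2.00 ± 0.27 and 1.82 ± 0.18 and the convertase gene Pcsk4 by 1.72 ± 0.40. Among 11 receptor and binding protein genes, 2 rose and 3 fell (median -0.37), with Sstr3, a somatostatin receptor, at -2.20 ± 0.66, Oprl1, the nociceptin receptor, at -1.94 ± 0.38 and Sstr1, another somatostatin receptor, at 1.00 ± 0.28. Under KCl, 5 further neuropeptide genes rose at 15 min and 3 at 180 min, and none fell. Adm rose by 1.83 ± 0.40 and 3.13 ± 0.41 at these times, and Nts, the neurotensin precursor, by 1.76 ± 0.39 and 1.39 ± 0.39. Of the processing and granule genes, 5 rose and 1 fell at each KCl time. Of the receptor and binding protein genes, Npy1r, a neuropeptide Y receptor, alone was called at 15 min (log2 fold change -0.88 ± 0.18), and none at 180 min. After Bic+4-AP 180 min, 4 of 12 astrocyte markers and 3 of 8 oligodendrocyte markers were called lower and 1 oligodendrocyte marker higher. Of the neuronal markers, 3 of 22 inhibitory ones were lower, as were 3 of 10 excitatory ones, with 1 higher, and 2 of 3 microglia markers tested were higher, at a summed level of 19.4 to 20.5 CPM against 4.27 to 8.44 CPM in basal samples. After KCl 15 min, 6 of 10 excitatory neuron markers were lower and 1 higher, with sums of 1151 to 1549 CPM in basal and 892 to 1053 CPM in stimulated samples. The part of these markers in the peptide results was not tested.

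The stimuli experiment first allows a comparison of silenced with spontaneously active cultures. After 48 h in TTX, Adcyap1, Crh and Cartpt were at a small fraction of their basal level and Penk was lower. The other 6 genes were not called. Of the 10 genes, 4 were called, all of them lower in TTX, against 21.6% of all 12027 genes called and 10.8% called lower. Crh is among the 4 through a filter that only samples without TTX passed, and the other 3 are Adcyap1, Cartpt and Penk. The median log2 fold change was -0.73 over the 10 genes and under 0.001 in size over all genes.

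Adcyap1 stood at 177, 214 and 138 CPM in basal samples and at 7.28, 16.2, 7.11 and 5.39 CPM in basal TTX samples. The groups were far apart, and the fall was 20.1-fold (log2 fold change -4.33 ± 0.20 (SE), adjusted p = 2.01e-19). Over all samples of the experiment, Adcyap1 ranged over 5.39 to 16.2 CPM (median 7.21) in the 12 samples that had been in TTX and over 138 to 237 CPM (median 206) in the 15 that had not. Crh was counted 57, 63 and 24 times in the 3 basal libraries, or 16.2, 23.3 and 9.05 CPM, and 1, 2, 2 and 0 times in the 4 basal TTX libraries. All TTX libraries were thus at or under the floor of 3 counts. Its summed counts in the basal and basal TTX libraries gave a ratio of 23.6 with an exact 95% interval of 9.89 to 73.9, which covers counting error only, and the fitted log2 fold change was -4.47 ± 0.50 (SE), adjusted p = 4.24e-09. Since only samples without TTX brought Crh past the filter, it had to differ in this direction.

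Cartpt was at 29.3, 24.8 and 38.8 CPM in basal and 2.65, 2.31, 4.27 and 4.32 CPM in basal TTX samples, the latter from 4 to 12 counts per library. No value was shared between the groups, and Cartpt fell by 8.75-fold (log2 fold change -3.13 ± 0.36 (SE), adjusted p = 7.17e-09). Penk was at 48.7, 52.9 and 49.8 CPM in basal and 31.1, 20.2, 26.3 and 27.3 CPM in basal TTX samples, all of the latter lower (log2 fold change -0.94 ± 0.20 (SE), adjusted p = 3.12e-04). The calls of Adcyap1, Cartpt and Penk held in every fit that left out a library and under every other setting. The Crh call also held wherever a value was given, but the filter had set its direction, so this is no support for it. For Cartpt, every basal TTX library lay under the filter's 5 CPM, so of the compared groups only basal brought it past the filter. Its held call is a description to that extent. Over the whole experiment Cartpt exceeded 5 CPM in 19 of 27 samples, some of them after withdrawal.

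Smaller differences passed the adjusted p without reaching 1.5-fold. Npy was at 462, 526 and 652 CPM in basal and 417, 403, 294 and 365 CPM in basal TTX samples, all TTX values being lower (log2 fold change -0.56 ± 0.21 (SE), adjusted p = 0.035). It reached 1.5-fold without basal replicate 1 (-0.66) or without basal TTX replicate 1 (-0.61) or 2 (-0.59). Vip had 51.9, 54.0 and 52.8 CPM and 24.5, 34.1, 48.4 and 44.2 CPM, again all lower in TTX (log2 fold change -0.47 ± 0.18 (SE), adjusted p = 0.0445). Tac1 gave 56.99, 41.8 and 40.7 CPM and 26.5, 41.01, 30.6 and 35.6 CPM, with basal TTX replicate 2 reaching into the basal range (log2 fold change -0.47 ± 0.17 (SE), adjusted p = 0.0283). Sst differed in the other direction, at 2578, 2567 and 3406 CPM in basal and 3447, 4553, 3129.9 and 3583 CPM in basal TTX samples, which overlapped (log2 fold change 0.37 ± 0.14 (SE), adjusted p = 0.0478). Cck, at 445, 502 and 421 CPM and 490.1, 560.2, 589 and 489 CPM, overlapped as well (log2 fold change 0.22 ± 0.11 (SE), adjusted p = 0.113). Pdyn, at chr2:129686549-129699938, which encodes prodynorphin, the precursor of the dynorphin opioid peptides, was at 6.27, 9.62 and 8.29 CPM in basal and 3.97, 4.04, 6.40 and 3.24 CPM in basal TTX samples (log2 fold change -0.91 ± 0.42 (SE), adjusted p = 0.0972).

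**Figure D2:**
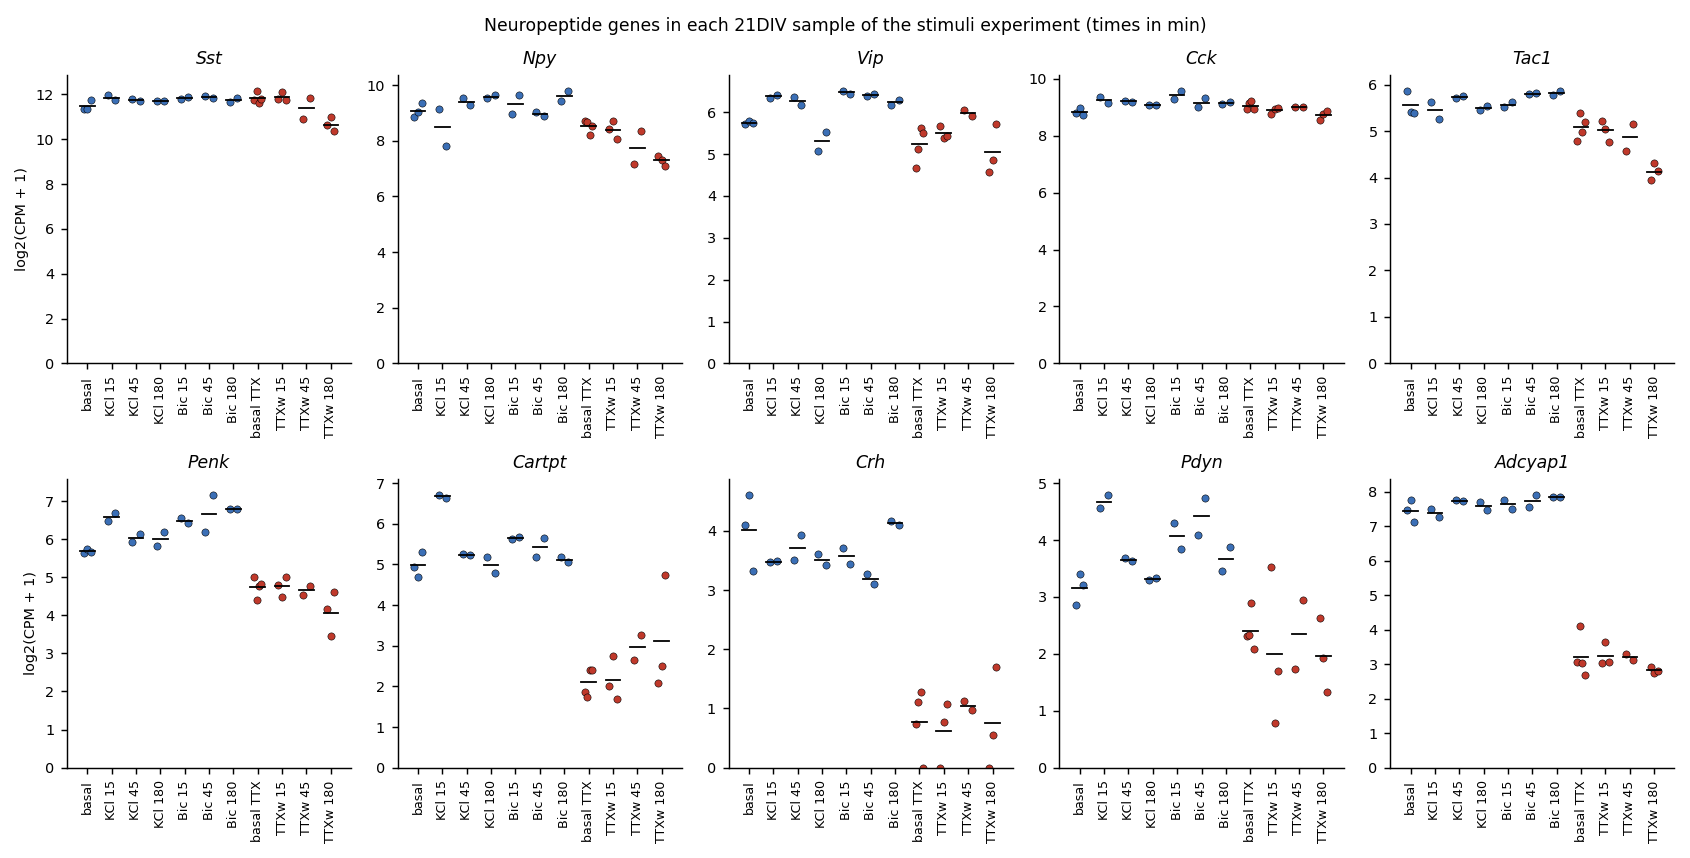
Level of each neuropeptide gene in every sample of the stimuli experiment as log2(CPM + 1), with cultures that had not been in TTX in blue and those that had in red, points for samples and bars for group means. All red points of Adcyap1, Crh and Penk lie below all blue points, and Sst, Npy and Tac1 fall at TTXw 180 min.

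Across all 27 samples, those that had been in TTX did not overlap the rest for 3 of the 10 genes, Penk, Crh and Adcyap1, which was so for 8.3% of all 12027 genes tested. Crh passed the filter only through samples without TTX, so its place in this count was given by the filter. Of 17 further neuropeptide genes, 9 fell in TTX and 3 rose, with a median log2 fold change of -1.54. Nppc, the C-type natriuretic peptide precursor, fell, with means of 88.9 ± 17.7 CPM (SD, n = 3) in basal samples and 4.70 ± 2.91 CPM (SD, n = 4) in basal TTX samples (log2 fold change -4.29 ± 0.27 (SE), adjusted p = 2.09e-15), and Pthlh and Nms were at 2 counts or fewer in every basal TTX library, against 27.7 ± 5.35 CPM (SD, n = 3) and 14.6 ± 9.87 CPM (SD, n = 3) in basal samples. No basal TTX library brought Pthlh, Nms or, among the receptor genes below, Crhr2 past the filter, so their falls are a description. Of 26 processing and granule genes, 9 fell and 3 rose (median -0.28). The granin gene Scg2 fell, with means of 957 ± 174 CPM (SD, n = 3) in basal samples and 70.1 ± 7.16 CPM (SD, n = 4) in basal TTX samples (log2 fold change -3.78 ± 0.14 (SE), adjusted p = 4.30e-23), and the granin gene Scg3 (-1.79 ± 0.12) and the convertase gene Pcsk1 (-2.62 ± 0.20) fell too. Among 14 receptor and binding protein genes, 5 fell and 4 rose (median -0.39). Cckbr had means of 89.6 ± 8.31 CPM (SD, n = 3) in basal samples and 18.7 ± 1.86 CPM (SD, n = 4) in basal TTX samples (log2 fold change -2.25 ± 0.16 (SE), adjusted p = 1.92e-14), the CRH receptor gene Crhr2 fell to at most 3 counts per library (-3.25 ± 0.51), and the delta opioid receptor gene Oprd1 rose (1.75 ± 0.60). Adcyap1r1, the receptor for PACAP, was picked after its values were seen. It rose, with means of 162 ± 22.2 CPM (SD, n = 3) in basal samples and 390.3 ± 38.8 CPM (SD, n = 4) in basal TTX samples (log2 fold change 1.26 ± 0.11 (SE), adjusted p = 2.56e-11), opposite in direction to its ligand. In the same comparison 12 of 12 astrocyte markers were called higher, and a link between any of these changes was not tested.

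Cell type markers also differed between basal TTX and basal cultures. Astrocyte markers summed to 2639 to 3243 CPM in basal and 7432 to 8485 CPM in basal TTX samples, with 12 of 12 called higher. Oligodendrocyte markers went from 752 to 1194 CPM to 2091 to 2161 CPM, with 5 of 8 higher. Markers of neurons in general went from 8265 to 8919 CPM to 6120.4 to 7288 CPM, with 2 of 8 lower, and those of inhibitory neurons from 2131 to 2286 CPM to 2561 to 2789.7 CPM, with 8 of 19 higher and none lower. The 8 activity genes, such as Fos and Arc, were all called lower in TTX. The part of these markers in the peptide results was not tested.

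KCl and Bic were compared with the same 3 basal samples at 15, 45 and 180 min. In the deposited column headers, the KCl and Bic libraries at 15 and 45 min carry the letter B and those at 180 min the letter A. Basal replicates 1 and 2 carry A and basal replicate 5 carries B, and all libraries that had been in TTX carry A. What the letter stands for is not stated, and for KCl and Bic it cannot be told apart from the step to 180 min. At 15 and 45 min only basal replicate 5 shares the letter of the stimulated libraries, so the letter is also largely mixed with those comparisons. Cartpt, Pdyn, Penk and Vip rose at 15 min of KCl, and no gene of the 10 was called at 45 or 180 min of KCl. Under Bic the genes that rose were Vip, Cck and Penk at 15 min, Vip, Penk and Pdyn at 45 min, and Penk alone at 180 min. The counts were 4 of 10 at KCl 15 min, where 7.22% of all genes were called and 4.52% higher, and 0 at KCl 45 and 180 min, where 0.765% and 0.765% were called. For Bic they were 3, 3 and 1, against 3.42%, 7.45% and 0.765% of all genes, with 2.4%, 4.5% and 0.69% called higher. No gene of the 10 was called lower. At an unadjusted p under 0.05 there were 2 of the 10 genes at KCl 45 min and 0 at KCl 180 min, of 1342 and 1498 among all genes, and DESeq2 called none of the 10 at either time.

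Cartpt at KCl 15 min gave the largest log2 fold change among these calls. From 29.3, 24.8 and 38.8 CPM in basal samples it reached 103 and 98.9 CPM after KCl 15 min, 3.26-fold above basal with close agreement between the replicates (log2 fold change 1.70 ± 0.26 (SE), adjusted p = 1.62e-05). At 45 min of KCl it was at 36.9 and 36.6 CPM and at 180 min at 35.3 and 26.8 CPM, both overlapping basal. Under Bic it was at 47.9 and 50.1 CPM at 15 min, above all basal samples without being called (log2 fold change 0.66 ± 0.29 (SE), adjusted p = 0.225), and the later Bic values of 35.2 and 49.3 CPM at 45 min and 35.5 and 32.1 CPM at 180 min reached into the basal range.

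Penk was called at 4 of the 6 times and agents. From 48.7, 52.9 and 49.8 CPM in basal samples it went to 87.7 and 102 CPM at KCl 15 min (log2 fold change 0.91 ± 0.20 (SE), adjusted p = 0.00218), above all basal samples. At 21DIV of the maturation experiment, Penk was not called at KCl 15 min (log2 fold change 0.20 ± 0.18 (SE), adjusted p = 0.569). Under Bic it was at 93.2 and 84.1 CPM at 15 min, 71.2 and 141.3 CPM at 45 min and 109.9 and 108.7 CPM at 180 min, all above basal, with replicate 2 at 45 min well above replicate 1. The log2 fold changes were 0.82 ± 0.21 (SE), adjusted p = 0.0161, then 1.09 ± 0.20 (SE), adjusted p = 2.45e-04, and then 1.12 ± 0.20 (SE), adjusted p = 4.75e-04. The last call held without any single library. The KCl 15 min call was lost without its replicate 2 (0.83, adjusted p = 0.0647) and the Bic 45 min call likewise (0.53, adjusted p = 0.241), and the Bic 15 min call was lost without basal replicate 1 or 5 (adjusted p = 0.0519 and 0.0523) or Bic 15 min replicate 2 (0.77, adjusted p = 0.219) and with counts summed over transcripts (adjusted p = 0.0774).

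Pdyn rose from 6.27, 9.62 and 8.29 CPM in basal samples to 22.6 and 26.7 CPM at KCl 15 min, both stimulated samples lying well above basal (log2 fold change 1.63 ± 0.35 (SE), adjusted p = 0.00192). At Bic 45 min it was at 16.1 and 25.8 CPM, also above basal (log2 fold change 1.41 ± 0.36 (SE), adjusted p = 0.00877). At Bic 15 min its values of 18.8 and 13.4 CPM exceeded basal without being called (log2 fold change 1.07 ± 0.39 (SE), adjusted p = 0.131), and passed with only the compared groups in the fit (1.08, adjusted p = 0.0377). The KCl call was lost without KCl 15 min replicate 2 (1.54, adjusted p = 0.0516), and the Bic 45 min call without basal replicate 1 (adjusted p = 0.0514) or Bic 45 min replicate 2 (1.04, adjusted p = 0.28). Counting by summed transcripts took both calls below the threshold (adjusted p = 0.0589 and 0.109).

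Vip was tightly grouped, at 51.9, 54.0 and 52.8 CPM in basal samples, 79.6 and 84.9 CPM at KCl 15 min, 90.3 and 85.9 CPM at Bic 15 min and 83.3 and 86.2 CPM at Bic 45 min. Every stimulated value of these 3 groups exceeded every basal one. At 21DIV of the maturation experiment, KCl 15 min had given the other sign for Vip, without a call (log2 fold change -0.58 ± 0.34 (SE), adjusted p = 0.329). The log2 fold changes were 0.64 ± 0.19 (SE), adjusted p = 0.0296, then 0.74 ± 0.20 (SE), adjusted p = 0.0251, and then 0.68 ± 0.19 (SE), adjusted p = 0.0192. These calls were near the threshold. Each was lost without most single libraries, with the fitted change hardly moving, in 4 of 5 fits for KCl 15 min (adjusted p up to 0.185), 4 of 5 for Bic 15 min (up to 0.212) and 3 of 5 for Bic 45 min (up to 0.13), and with counts summed over transcripts (0.108, 0.0966 and 0.087). The libraries concerned were basal replicates 1 and 5 and both stimulated ones at 15 min of either agent, and basal replicate 5 and both stimulated ones at Bic 45 min.

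Cck was called at Bic 15 min, with 618 and 762 CPM against 445, 502 and 421 CPM in basal samples. Both stimulated values lay above basal (log2 fold change 0.59 ± 0.12 (SE), adjusted p = 0.00268), close to the 1.5-fold limit. The call was lost without basal replicate 5 (0.54, under 1.5-fold) or Bic 15 min replicate 3 (0.47, adjusted p = 0.0941) and, under 1.5-fold, with no filter on low counts (0.58). KCl 15 min, at 651 and 564 CPM, passed the adjusted p at under 1.5-fold (log2 fold change 0.41 ± 0.12 (SE), adjusted p = 0.0284).

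Adcyap1, which rose at 21DIV of the maturation experiment, was not called under either agent here. Its values were 177, 214 and 138 CPM in basal samples, 181 and 153 CPM at KCl 15 min and 227 and 229.6 CPM at Bic 180 min, with log2 fold changes over the 6 comparisons from -0.08 to 0.37. The basal level itself differed between the experiments, at 37.3 ± 15.1 CPM (SD, n = 3) in the maturation experiment and 176 ± 37.6 CPM (SD, n = 3) here, and so did that of Cartpt, at 4.55 ± 1.84 CPM (SD, n = 3) and 30.99 ± 7.16 CPM (SD, n = 3), and Cck, at 2222 ± 218 CPM (SD, n = 3) and 456 ± 41.8 CPM (SD, n = 3). Penk was likewise at 128.9 ± 44.5 CPM (SD, n = 3) in the maturation experiment and 50.5 ± 2.19 CPM (SD, n = 3) here. The tables were scaled separately and the agents differed in 4-AP, so these values stand side by side without a test. Crh was not called in any of the 6 comparisons, with log2 fold changes from -0.99 to 0.03, but at Bic 45 min, at 8.68 and 7.64 CPM against 16.2, 23.3 and 9.05 CPM, it passed as lower without basal replicate 5 (-1.26, adjusted p = 0.0351) and with only the compared groups in the fit (-0.99, adjusted p = 0.046). Npy at KCl 15 min had discordant replicates of 562 and 225 CPM, and without replicate 1 it passed as lower (-1.24, adjusted p = 0.00577). Sst and Tac1 were called at none of the 6, with log2 fold changes of -0.13 to 0.39.

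The difference between Bic and KCl was also tested at each time, for doses of different agents that are not matched in strength. None of the 10 genes passed at an adjusted p under 0.05 in edgeR's test, against 0%, 0.698% and 0.74% of all genes at 15, 45 and 180 min, and at each time 2 of the 10 had an unadjusted p under 0.05. The fitted differences ran from -1.05 to 0.72 at 15 min, from -0.59 to 0.87 at 45 min and from 0.03 to 0.92 at 180 min. Cartpt at 15 min was lower under Bic (difference -1.05 ± 0.29 (SE), adjusted p = 0.621). Vip at 180 min was at 71.3 and 77.9 CPM under Bic and 32.9 and 45.1 CPM under KCl (0.92 ± 0.24 (SE), adjusted p = 0.0566), and Penk at 180 min at 109.9 and 108.7 CPM and 55.4 and 71.9 CPM (0.77 ± 0.23 (SE), adjusted p = 0.128). With DESeq2, 1 gene passed, Vip at 180 min, and with no filter on low counts 4 genes did, Cartpt and Npy at 15 min, Penk at 45 min, and Penk and Vip at 180 min. Penk at 45 min also passed without Bic 45 min replicate 1 (1.16, adjusted p = 0.00262). A p above the threshold does not show that the agents act alike on these genes.

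Few further peptide genes were called under these stimuli. Of 17 tested, 1 rose at KCl 15 min and at Bic 15 min, Grp, the precursor of gastrin-releasing peptide (log2 fold changes 1.37 ± 0.21 and 1.09 ± 0.23). At Bic 45 min 3 rose and 3 fell. The largest of these changes were falls of Agt, the angiotensinogen gene, of Calca and of Adm (-1.67 ± 0.54, -0.86 ± 0.28 and -0.80 ± 0.25). Of 26 processing and granule genes, 3 rose and 2 fell at KCl 15 min, with Pcsk1, the convertase of the regulated secretory pathway, at 120.4 ± 12.03 CPM (SD, n = 2) against 44.1 ± 8.66 CPM (SD, n = 3) in basal samples (log2 fold change 1.45 ± 0.16 (SE), adjusted p = 2.33e-08). It was also called higher at Bic 15, 45 and 180 min (0.84 ± 0.17, 1.00 ± 0.16 and 0.85 ± 0.16) and at KCl 180 min (0.69 ± 0.17). Of 14 receptor and binding protein genes, 4 rose and none fell at KCl 15 min. Sstr2, a somatostatin receptor, had means of 18.1 ± 2.26 CPM (SD, n = 3) in basal samples and 67.7 ± 8.95 CPM (SD, n = 2) at KCl 15 min (log2 fold change 1.90 ± 0.24 (SE), adjusted p = 8.74e-07) and was called higher at every Bic time (1.56 ± 0.26, 1.81 ± 0.25 and 1.01 ± 0.25). Markers of astrocytes were called higher in 5 of 12 cases at KCl 15 min, 2 at Bic 15 min and 7 at Bic 45 min. At the same 3 times, oligodendrocyte markers were higher in 4, 2 and 4 of 8 cases, inhibitory neuron markers in 3, 1 and 5 of 19, excitatory neuron markers in 2, 2 and 2 of 10, and markers of neurons in general in 2, 3 and 3 of 8. The only one of these markers called lower was an excitatory one at Bic 45 min. The part of these markers in the peptide results was not tested.

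**Figure D3:**
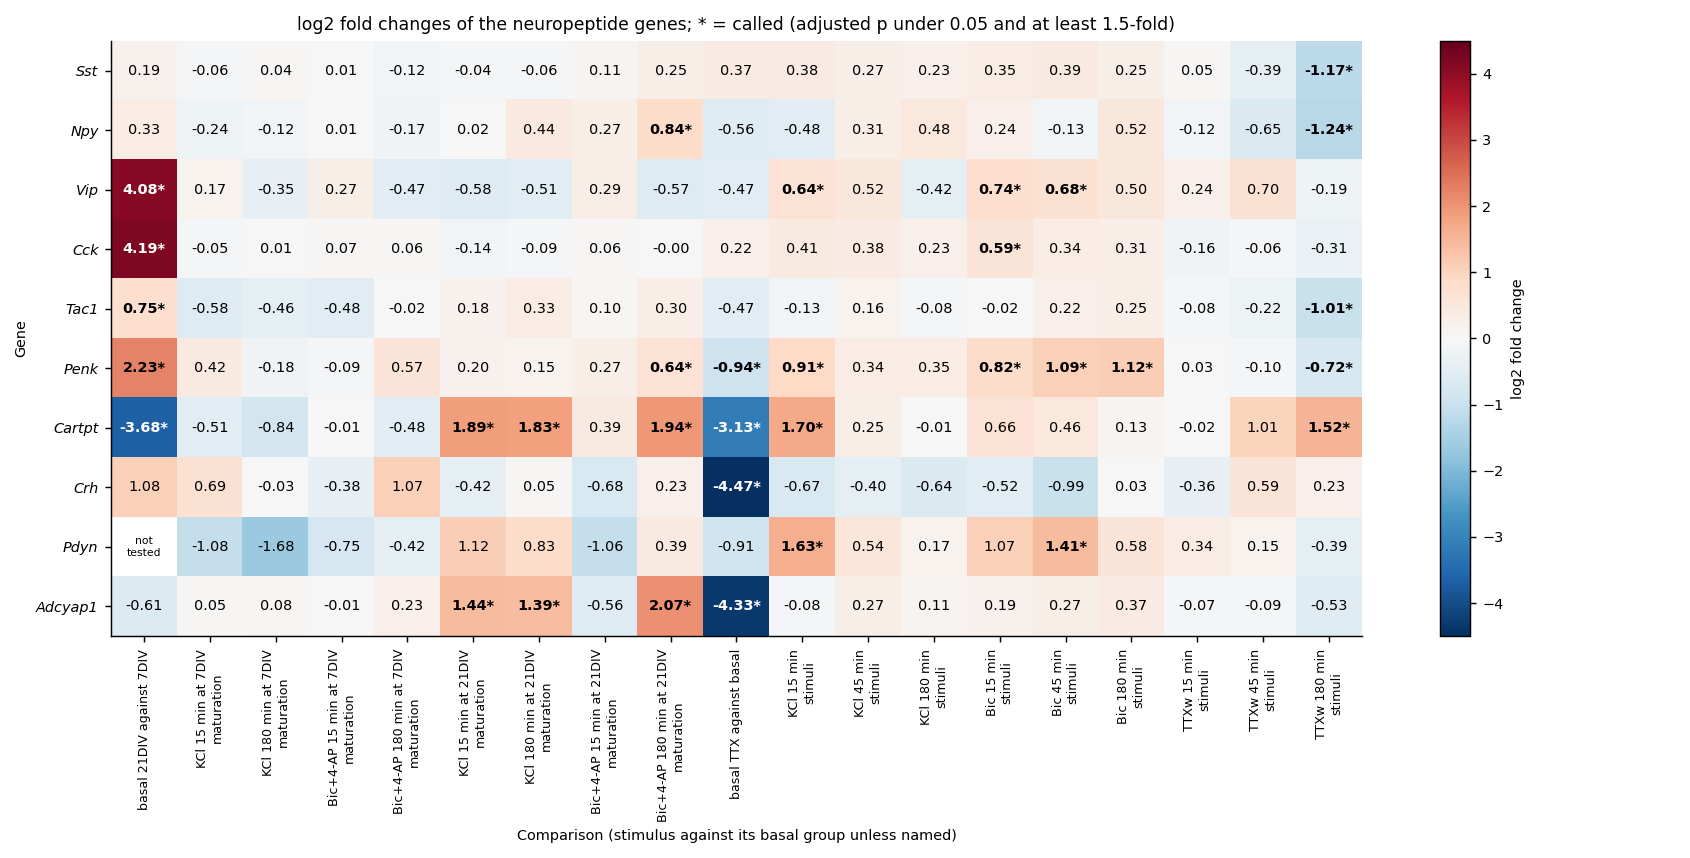
Fitted log2 fold change of each neuropeptide gene (rows) in each comparison (columns), red for higher and blue for lower, with an asterisk where the gene was called. No gene is called in the 7DIV columns, the TTX column holds the largest falls (Crh -4.47 and Adcyap1 -4.33), and Penk is called in 4 of the 6 KCl and Bic columns of the stimuli experiment.

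TTX withdrawal was compared with basal TTX, the control it shares with the silencing comparison above. Sst, Npy, Tac1 and Penk were lower 180 min after withdrawal, and Cartpt was called higher, a call lost without 1 library. That made 5 of 10 genes called, 4 lower and 1 higher, against 14% of all genes, 6.69% lower and 7.33% higher. None of the 10 was called at 15 or 45 min, where 0% and 0.382% of all genes were called. Of all genes, 757 at 15 min and 1207 at 45 min had an unadjusted p under 0.05, and of the 10 genes 0 and 3. DESeq2 called none of the 10 at either time.

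Sst was at 3447, 4553, 3129.9 and 3583 CPM in basal TTX samples and at 1572, 2013 and 1309 CPM at 180 min. All later samples were below all controls, and Sst fell by 2.25-fold (log2 fold change -1.17 ± 0.15 (SE), adjusted p = 1.60e-07). Npy was at 417, 403, 294 and 365 CPM and then at 176, 159 and 136 CPM, without overlap (log2 fold change -1.24 ± 0.23 (SE), adjusted p = 8.83e-05). Tac1 was at 26.5, 41.01, 30.6 and 35.6 CPM and then at 14.3, 18.8 and 16.6 CPM, also without overlap (log2 fold change -1.01 ± 0.21 (SE), adjusted p = 4.36e-04). These 3 calls held without any single library and under every other setting. At 45 min, replicate 1 was already low, with Sst at 1919.6 and 3695 CPM and Npy at 140.6 and 327 CPM in replicates 1 and 3, and without replicate 3 both genes passed as lower at 45 min (-0.95, adjusted p = 0.00528, and -1.41, adjusted p = 0.0211).

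Penk went from 31.1, 20.2, 26.3 and 27.3 CPM to 16.9, 9.88 and 23.4 CPM at 180 min, with replicate 3 inside the control range (log2 fold change -0.72 ± 0.26 (SE), adjusted p = 0.0446). The call was kept in 2 of 7 fits that each left out a library and was lost without TTXw 180 min replicate 1 (adjusted p = 0.0777) or 2 (-0.39, adjusted p = 0.386) and without basal TTX replicate 1, 3 or 4 (adjusted p = 0.102, 0.068 and 0.0995). With counts summed over transcripts or only the compared groups in the fit it was also lost (adjusted p = 0.0737 and 0.0537). Cartpt was at 2.65, 2.31, 4.27 and 4.32 CPM in basal TTX samples and at 3.25, 4.71 and 25.7 CPM at 180 min. Replicate 3 stood far above replicates 1 and 2, which were near the control range (log2 fold change 1.52 ± 0.47 (SE), adjusted p = 0.0184). Without replicate 3 the log2 fold change was 0.22, adjusted p = 0.81.

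Adcyap1 was not called at any time after withdrawal. It was at 7.14, 11.4 and 7.28 CPM at 15 min, 8.79 and 7.65 CPM at 45 min and 6.51, 5.65 and 6.04 CPM at 180 min. These values lay within or near the basal TTX range of 5.39 to 16.2 CPM and below every basal culture (log2 fold change at 180 min -0.53 ± 0.36 (SE), adjusted p = 0.34). Crh likewise had at most 3 counts in any TTXw library. Vip, Cck and Pdyn were not called, with log2 fold changes at 180 min of -0.19, -0.31 and -0.39. Cck passed the adjusted p (0.0332) at under 1.5-fold.

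**Figure D4:**
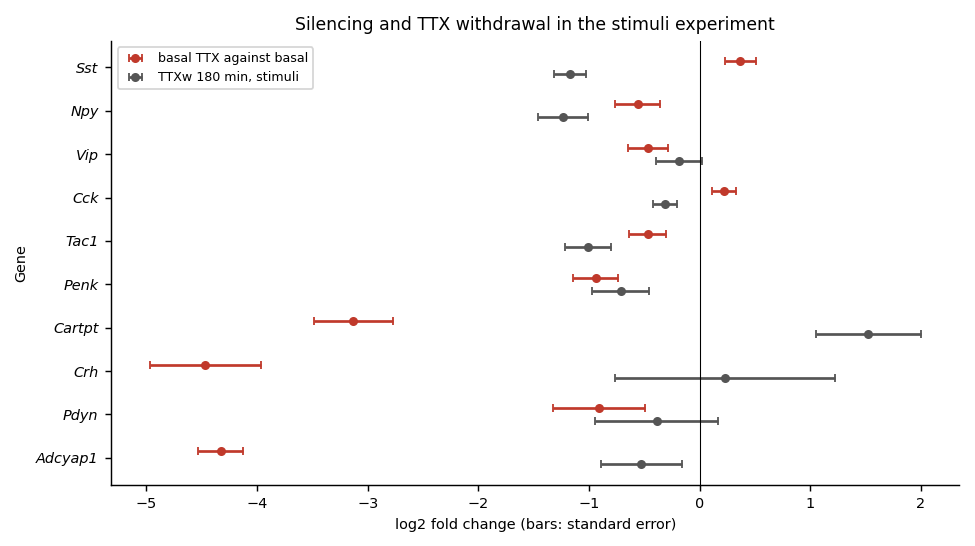
Log2 fold change of each neuropeptide gene in basal TTX against basal (red) and in TTXw 180 min against basal TTX (grey), with bars for the standard error, 2 comparisons that share the basal TTX samples. Sst, Npy and Tac1 lie between -1.24 and -1.01 after withdrawal, and Adcyap1, Crh and Cartpt between -4.47 and -3.13 in TTX.

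At the same time after withdrawal, 9 of 19 inhibitory neuron markers fell and 1 rose, and their sum was 2561 to 2789.7 CPM in basal TTX and 1636 to 1871 CPM at 180 min. Gad1 had means of 469 ± 36.5 CPM (SD, n = 4) in basal TTX samples and 249 ± 13.3 CPM (SD, n = 3) at TTXw 180 min (log2 fold change -0.91 ± 0.12 (SE), adjusted p = 1.60e-07) and Gad2 had means of 459.9 ± 25.04 CPM (SD, n = 4) in basal TTX samples and 188 ± 10.8 CPM (SD, n = 3) at TTXw 180 min (-1.29 ± 0.11 (SE), adjusted p = 1.70e-11). Markers of neurons in general summed to 6120.4 to 7288 CPM and 3912 to 4919 CPM, with 4 of 8 lower, and astrocyte markers to 7432 to 8485 CPM and 10904 to 15238 CPM, with 6 of 12 higher. Oligodendrocyte markers were called higher in 5 of 8 cases. The part of these markers in the peptide results was not tested. Of 8 activity genes, 6 rose. Among 17 further neuropeptide genes, Pnoc, the nociceptin precursor, and Cort, the cortistatin precursor, fell (log2 fold changes -1.21 ± 0.23 and -1.12 ± 0.37), 3 fell in all, and Adm alone rose (1.61 ± 0.31). Of 26 processing and granule genes 3 fell, Ptprn, Scg5 and Scg2 (-0.72 ± 0.11, -0.62 ± 0.10 and -0.60 ± 0.17), and of 14 receptor and binding protein genes 3 fell, Crhbp, Oprl1 and Npy1r (-1.40 ± 0.22, -1.36 ± 0.27 and -0.68 ± 0.23).

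Across conditions the 10 genes followed different courses. Over the 10 condition means of the maturation experiment, Pearson correlations of log2 CPM between pairs of the genes ran from -0.90 to 0.99 (median 0.52, 45 pairs), and over the 11 condition means of the stimuli experiment from 0.30 to 0.98 (median 0.76). In the stimuli experiment the genes whose course was most like that of Adcyap1 were Coch, Fam81a and Atp2a2 (Pearson r 0.997, 0.997 and 0.995 among 12027 genes), and those most like Cartpt were Cltc, Rheb and Lrp8 (0.985, 0.980 and 0.979). In the maturation experiment, those most like Cck were Thy1, Vsnl1 and Cracdl (0.998, 0.998 and 0.997 among 11746 genes) and those most like Vip were Cpne6, Ddn and Syn2 (0.998, 0.997 and 0.997). These values describe condition means that share libraries and a strong split by stage or by TTX.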

How the data were processed

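RNA of 55 samples was sequenced from transcript 3′ ends (CEL-Seq2). The authors aligned reads to mm10 with STAR and assigned them to transcripts by means of the End Sequence Analysis Toolkit, per the labels and methods. The deposited tables hold raw counts per RefSeq transcript, and whether molecular identifiers were collapsed is not given in the sources used here. If they were not, amplification copies add to the counts.

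Transcripts were matched to symbols by RefSeq accession: 78905 of 97700 (80.8%) in the maturation table and 78229 of 96722 (80.9%) in the stimuli table, leaving out 18.5% and 19.2% of counts. Per symbol the transcript with the most counts was used. Genes were kept when at least 2 samples exceeded 5 CPM, and tested with edgeR 4.0.16 in R 4.3.3 (TMM scaling, quasi-likelihood test, Benjamini-Hochberg adjustment over all genes tested). Stage was fitted on the 6 basal samples, all else on every sample of the experiment with 1 group per condition. Main calls needed an adjusted p under 0.05 and 1.5-fold, and differences of responses the adjusted p alone. SE is the fold change's standard error. The fits were tested on simulated data. Alternatives were DESeq2 1.42.0, its size factors, other filters, counts summed over transcripts, a replicate block, only the compared groups in the fit, and leaving out each replicate.

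Libraries of 1 group differed beyond sampling noise (chi-square per degree of freedom 2.08 to 18 over 48 pairs), so none was a copy. At these depths 3 counts, the floor used for low genes, lie below 3 CPM in every library. Intervals and floors cover counting error only. The 10 genes and all gene lists were chosen with earlier results of these data known. Beside the 10, the text names up to 3 called genes per list and comparison, those with the largest log2 fold change in either direction, and the 3 genes most correlated with a gene of the 10. Gad1, Gad2, Fos, Arc and Adcyap1r1 fall outside this rule.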

Additional observations from a re-analysis of the deposited data

Results flagged for a closer look

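For 4 results the response at 21DIV differed from that at 7DIV in a test of the difference itself. Cartpt did so under KCl 15 min (difference of log2 fold changes 2.41 ± 0.49 (SE), adjusted p = 0.00945), KCl 180 min (2.67 ± 0.50 (SE), adjusted p = 0.00995) and Bic+4-AP 180 min (2.42 ± 0.52 (SE), adjusted p = 0.0074), where each of the 3 differences sets a called rise at 21DIV against a negative value at 7DIV that did not pass the test. Its basal levels at the stages were 61.8 ± 19.3 CPM (SD, n = 3) and 4.55 ± 1.84 CPM (SD, n = 3). Adcyap1 did so under Bic+4-AP 180 min (1.84 ± 0.46 (SE), adjusted p = 0.0174), with basal levels of 57.6 ± 7.29 CPM (SD, n = 3) and 37.3 ± 15.1 CPM (SD, n = 3). The Adcyap1 call was lost in several of the fits that each left out a library, as given above, whereas the Cartpt calls were kept in all of them. All p-values are edgeR's, adjusted over all genes. In the group of 4 basal TTX samples, 0 of 10 genes had a sample far enough from the others to stand out by Dixon's test.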

How the results depend on the processing

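Of 37 member values called, 21 stayed called with the same sign under every alternative that gave a value, and none was reversed. Over 7 other settings, 238 of 258 values stayed called and 20 lost the call: all 37 stayed with DESeq2, its size factors or the filterByExpr filter, 36 without a filter on low counts, 34 with only the compared groups in the fit, 29 with a replicate block, and 28 of 36 with counts summed over transcripts, which gave no value for Crh in TTX. Of 238 values with 1 replicate left out, 196 stayed called and 42 did not. Where leaving out a replicate left a group with 1 sample, that sample was assumed to vary like the other groups.

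Without a filter, 1 gene was called for KCl at 7DIV (0 with it), 2 for the KCl difference between stages (1 with it) and 4 for Bic minus KCl (0 with it). It also added Adcyap1 to the stage comparison (-0.61, adjusted p = 0.019), and Npy to basal TTX (-0.61, adjusted p = 8.24e-07), TTXw 45 min (-0.64, adjusted p = 6.89e-04) and the Bic+4-AP difference (0.97, adjusted p = 2.06e-04). Bic minus KCl also gave 1 gene with DESeq2 and 2 with only the compared groups in the fit. Counts summed over transcripts gave 2 genes each for KCl and for Bic in the stimuli experiment, against 4 each. The cause was not tested. With 1 replicate left out, the number of genes called ran from 4 to 5 for stage, was 0 for both agents at 7DIV, and ran from 2 to 3 for KCl and 2 to 4 for Bic+4-AP at 21DIV, 1 to 2 and 1 to 3 for their differences between stages, 4 to 5 for TTX, 1 to 4 for KCl and 3 to 4 for Bic in the stimuli experiment, 4 to 5 for TTXw and 0 to 1 for Bic minus KCl. The count of 3 for the Bic+4-AP difference came without a Bic+4-AP 15 min library of 21DIV.

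Replicate numbers did not pair the samples. Deviations from group means of same-numbered samples correlated at -0.247 to 0.114 over the pairs of the maturation experiment and -0.0936 to 0.103 over those of the stimuli experiment, above 0.1 in 2 and 1 of them. With the replicate block, 1 gene was called for the Bic+4-AP difference between stages, against 2 without it. The 8 calls it lost were Tac1 for stage (adjusted p = 0.261), Vip at KCl 15 min, Bic 15 min and Bic 45 min, Cck and Penk at Bic 15 min, Penk at TTXw 180 min and the Adcyap1 difference, and it gained Adcyap1 for stage, Tac1 and Vip in TTX and Crh at Bic 45 min (-1.27, adjusted p = 0.0285).

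Depth limits Pdyn at 7DIV, Crh at 7DIV and in TTX, and Vip at 7DIV, which had few counts per library. Groups of 2 samples estimate spread poorly, and every KCl or Bic group of the stimuli experiment is of that size.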
